A study of Saccharomyces cerevisiae with 36 samples.

Results

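RNA of wild-type (WT) budding yeast was compared between 15 and 35 min after the cells were moved to minimal medium without amino acids. The 3 arrays of WT at 15 min and the 3 of WT at 35 min were taken by their titles, 6 of the 36 arrays of a study that also profiled scc2-D730V and eco1-W216G mutants, and sampled each strain at 0, 15, 35 and 55 min. WT here is the haploid MATa strain W303a, which carries mutant alleles of URA3, LEU2, HIS3, TRP1, ADE2 and CAN1 and lacks BAR1. Cultures grown exponentially in rich medium supplemented with amino acids were pelleted and resuspended in the minimal medium, and aliquots were collected on filters. Both groups therefore share the genotype, the change of medium and the handling, and differ by 20 min in the minimal medium. The series has no cells moved to a medium with amino acids, so starvation and time since the transfer cannot be told apart. Each of the 3 strains was grown as independent cultures, according to the methods. The scc2-D730V mutation lies in the loader of cohesin, the ring that holds sister chromatids together, and eco1-W216G in the acetyltransferase that modifies cohesin.

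Yeast without amino acids activates the kinase Gcn2, which slows the start of translation while allowing more of the transcription factor Gcn4 to be made, and Gcn4 turns on genes of amino acid synthesis. The same stress lowers TOR and protein kinase A signalling, which lowers the transcripts of ribosomal proteins and of the many factors that assemble ribosomes. Genes for using poor nitrogen sources, for stress defence and for storage carbohydrates are turned on by the loss of the same signals. Hexose transporters answer to glucose through Snf3, Rgt2, Mth1 and Std1, each transporter gene being tuned to its own range of sugar.

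Each array gives a single intensity for a probe set, and all levels below are log2 of that intensity. A probe set was called at an adjusted p under 0.05 in limma and a change of at least 1.4-fold. Of 5763 probe sets tested, 323 were higher at 35 min (5.6%) and 293 were lower (5.08%). Among them, 92 were higher and 116 lower by at least 2-fold, and 2 were higher and 13 lower by at least 4-fold. The 3 arrays of one time lay wholly above those of the other for 318 of the higher calls and 281 of the lower calls. Over all probe sets, 22% had all 35 min arrays above all 15 min arrays and 15.8% had them all below. Gene by gene, with the brightest probe set standing for a gene, 307 of 5449 genes were higher and 266 lower, and the median change over all genes was 0.02.

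The size of both counts depended on single arrays. They fell to 161 higher and 164 lower without replicate 1 at 15 min, and to 160 and 182 without replicate 1 at 35 min. Without replicate 2 at 15 min 208 were higher, and without replicate 3 at 35 min 186 were lower. Correlations between arrays were 0.989 to 0.992 within 15 min, 0.980 to 0.994 within 35 min and 0.956 to 0.981 across the times. Replicate 2 at 35 min lay nearest to the 15 min arrays, and many genes below have their smallest change in it. Of 201 probe sets of named genes that were called, 111 kept the call whichever of the 6 arrays was left out. In bulk RNA, fewer cells of a kind and less RNA per cell cannot be told apart, and the normalization of the arrays leaves only changes relative to all other transcripts.

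**Figure D1:**
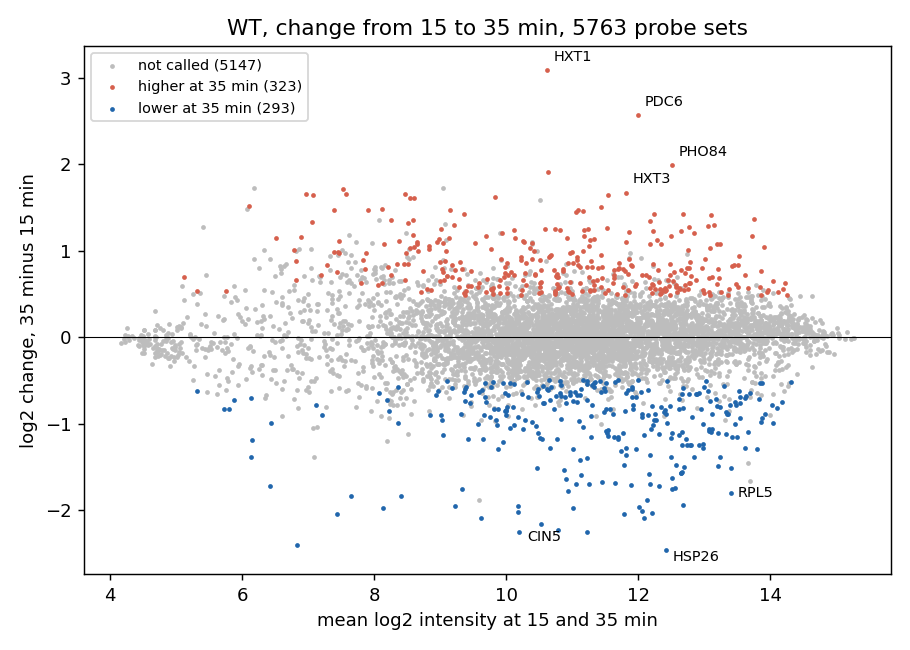
Change from 15 to 35 min in WT (log2, vertical axis) against the mean log2 intensity at both times (horizontal axis) for 5763 probe sets, with the 323 called higher in red, the 293 called lower in blue and the rest in grey. HXT1 and PDC6 lie highest, at 3.09 and 2.57, and HSP26 lowest, at -2.46.

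MFA2, STE2 and the deleted BAR1 matched the label of the strain. MATa cells make a-factor and the receptor for alpha-factor, and MFA2 and STE2 were at 13.92 ± 0.19 and 13.62 ± 0.11 (SD, n = 3) at 15 min. BAR1, which is deleted here, was at 4.81 ± 0.05 and gives the floor of the array. MF(ALPHA)1, an alpha-factor gene silent in MATa cells, was at 5.23 at both times. SAG1, STE3 and MF(ALPHA)2, also counted among alpha-specific genes, were at 11.00, 7.75 and 7.03 at 15 min. Only MF(ALPHA)1 of that list was thus near the floor.

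The largest increase was that of HXT1, and hexose transport genes moved in both directions. The list of 21 measured transporters and their regulators held 4 genes that rose (19%, against 5.6% of all probe sets) and 6 that fell (28.6%, against 5.08%). Its median change was -0.00498, against 0.02 over all genes. HXT1 (YHR094C, chromosome VIII), the low-affinity transporter used at high glucose, was at 8.86, 8.89 and 9.50 on the 15 min arrays and at 12.55, 11.62 and 12.34 on the 35 min arrays. The lowest 35 min array lay more than 4-fold above the highest 15 min array. The fitted change was 3.09 (standard error 0.35, adjusted p = 1.16e-06), or 8.51-fold. HXT3 (YDR345C, chromosome IV), a second low-affinity transporter, was at 10.59, 11.08 and 11.29 and then at 13.06, 12.21 and 12.69, a 3.17-fold rise (adjusted p = 3.82e-05). MIG2, a repressor made when glucose is plentiful, went from 7.47, 7.32 and 8.41 to 9.31, 9.08 and 9.64, a 3.05-fold rise (adjusted p = 0.00385).

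HXT4 and HXT2, transporters of higher affinity, fell, while 11 of the 21 members of the list were not called. HXT4 (YHR092C, chromosome VIII) was at 12.78, 12.92 and 12.73 at 15 min and at 10.70, 10.87 and 10.75 at 35 min, with almost no spread in either group. It was 4.10-fold lower at 35 min (log2 change -2.04, standard error 0.26, adjusted p = 5.25e-06). HXT2 was at 12.46, 11.69 and 12.16 and then at 10.67, 9.73 and 10.82, 3.24-fold lower (adjusted p = 0.00103). MTH1, a corepressor that keeps the transporter genes off without glucose, fell by 1.75 on the log2 scale, and its partner STD1 rose by 0.69 (adjusted p = 0.0518 without replicate 2 at 15 min). SNF3, the sensor of low glucose, had a change of -0.98. Lower levels were also found for HXT13 (change -1.72) and HXT17 (change -0.78), which are near-identical in sequence to other transporters, so their probe sets may read more than 1 gene. The calls of SNF3, of HXT17 and of a second HXT13 probe set were lost without replicate 2 at 15 min and without replicate 1 or 3 at 35 min, and those of SNF3 and HXT17 also without replicate 3 at 15 min, with adjusted p of up to 0.0971 for SNF3, 0.0779 for the second HXT13 probe set and 0.166 for HXT17. The HXT13 probe set with the change of -1.72 kept its call with any of the 6 arrays left out (adjusted p of up to 0.0175).

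HXK2 and SUC2 fell as well. HXK2, the main hexokinase and a mediator of glucose repression, was at 13.43, 13.68 and 13.48 at 15 min and at 12.15, 12.24 and 12.07 at 35 min, 2.60-fold lower (adjusted p = 0.000412). SUC2, the secreted invertase, was at 13.10, 12.87 and 12.87 and then at 11.28, 11.55 and 11.27, 2.99-fold lower (adjusted p = 3.18e-05). For both genes the groups stood more than 1 unit apart. Besides these, PDC6 had the second largest rise of all. PDC6 (YGR087C, chromosome VII), a minor pyruvate decarboxylase, was at 10.07, 11.29 and 10.76 at 15 min and at 13.31, 13.26 and 13.27 at 35 min, a 5.94-fold rise (standard error 0.30 on the log2 scale, adjusted p = 1.42e-06). Apart from PDC6 and HXK2, none of the 27 genes of glycolysis and fermentation was called, and the list's median change was -0.02.

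**Figure D2:**
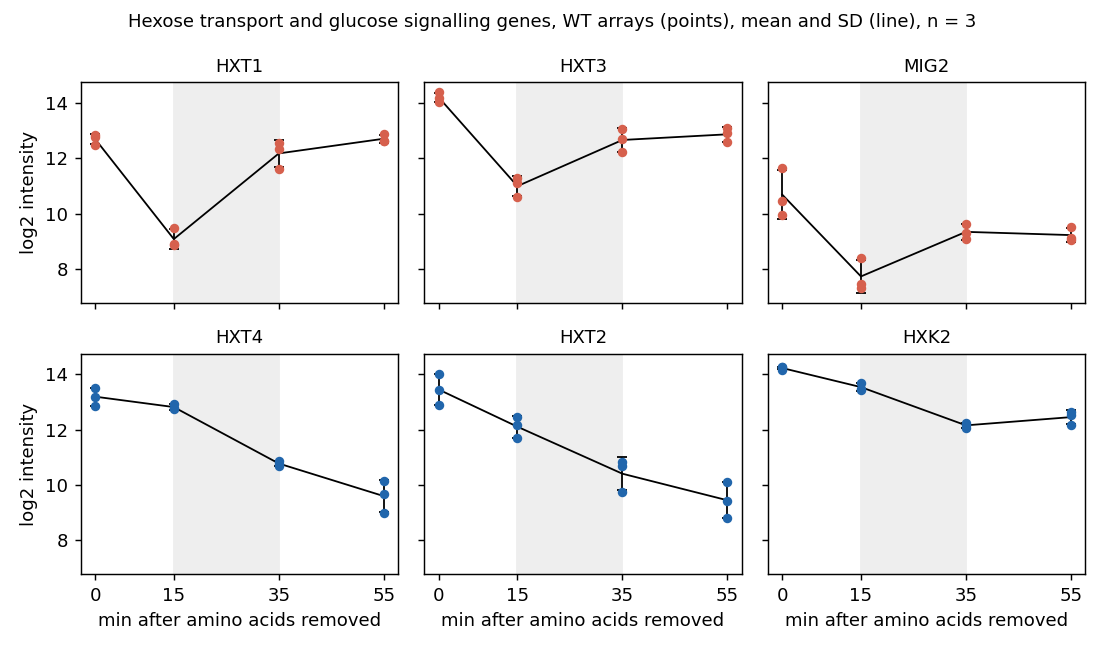
Log2 intensity (vertical axis) of 6 genes of hexose transport and glucose signalling on the WT arrays at 0, 15, 35 and 55 min (horizontal axis), with points for arrays, the line and bars for the mean and SD of 3 arrays, and the interval from 15 to 35 min shaded. HXT1, HXT3 and MIG2 are higher at 35 than at 15 min, and HXT4, HXT2 and HXK2 are lower.

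Genes of cytosolic ribosomal proteins made up the largest group of lower transcripts. Of 127 measured, 84 fell (66.1%, against 5.08% of all probe sets) and none rose, and their median change was -0.80. They were 31.6% of the genes called lower. The count was 52 of 75 for the large subunit and 32 of 52 for the small subunit. In all, 122 of the 127 changes were below 0, and the range ran from -2.03 to 0.57. Leaving out 1 array gave 63 to 83 lower members, the fewest without replicate 1 at 15 min.

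The steepest falls came from both subunits. RPS8B (YER102W, chromosome V), a small subunit protein, was at 13.72, 12.98 and 13.00 at 15 min and at 11.57, 10.79 and 11.24 at 35 min, a 4.10-fold drop (adjusted p = 3.82e-05). RPL24A (YGL031C, chromosome VII), of the large subunit, was at 13.26, 12.76 and 12.96 and then at 11.38, 10.59 and 11.15, 3.87-fold lower (adjusted p = 6.50e-06). All 35 min arrays of both genes lay more than 1 unit under all 15 min arrays. RPL5 (YPL131W, chromosome XVI), which binds the 5S rRNA, was at 14.38, 14.29 and 14.25 and then at 12.56, 12.39 and 12.58. Its 3.47-fold fall had a standard error of 0.19 on the log2 scale and an adjusted p of 5.53e-07. RPP0, the base of the ribosomal stalk, and RPP2B, one of the acidic proteins it carries, fell 2.44-fold and 2.85-fold, and RPS26A and RPL17A fell 2.83-fold and 3.24-fold.

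Most yeast ribosomal proteins are encoded by a pair of near-identical genes. In 50 pairs with a probe set for each gene, both genes were called lower in 20, only 1 of them in 22 and neither in 8. Probe sets that match near-identical genes may read both, so a difference within a pair is uncertain. ASC1, a ribosome-bound signalling protein, was at 14.36, 14.35 and 14.32 at 15 min and at 13.44, 13.52 and 13.28 at 35 min, 1.90-fold lower (adjusted p = 9.86e-06). OLA1 and STM1, both proteins associated with ribosomes, fell by 1.74 and 1.75 on the log2 scale. Of 71 mitochondrial ribosomal proteins, 3 were called lower (4.23%, against 5.08% of all probe sets) and none higher. Their median change was -0.24.

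Factors that build ribosomes did not follow the ribosomal proteins. Over 159 genes of the small subunit processome, the assembly of both subunits and the nucleolus, 19 rose (11.9%, against 5.6% of all probe sets), 2 fell and the median change was 0.58. A change above 0 was found for 130 of the 159. These genes started low at 15 min. Their median level was 7.78, 7.58 and 7.78 on the 15 min arrays and 8.66, 7.88 and 8.24 on the 35 min arrays, against 12.28, 12.34 and 12.15 at 0 min. The ribosomal protein genes, in contrast, had medians of 13.12, 12.82 and 12.83 at 15 min and of 12.27, 11.87 and 12.11 at 35 min, after 14.46, 14.44 and 14.45 at 0 min. Replicate 2 was the lowest at 35 min for both sets.

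The calls for assembly factors rested on few arrays. Only 5, 5, 3 and 5 of them were higher when replicate 1 or replicate 2 at 15 min, or replicate 1 or replicate 3 at 35 min, was left out, while 25 were higher without replicate 2 at 35 min. With any of the 6 arrays left out the median change stayed between 0.39 and 0.76. IPI1, of the Rix1 complex that processes pre-rRNA, kept its call throughout, at 6.76, 6.90 and 7.09 and then at 8.23, 7.97 and 7.90, a 2.17-fold rise (adjusted p = 0.00502). SHQ1, which helps assemble box H/ACA snoRNPs, rose 1.78-fold (adjusted p = 0.000278). BUD22, a processome-associated factor, had one of the 15 largest rises, 2.87-fold, but from 5.24, 5.20 and 5.57, close to the floor. SOF1, of the processome, had the largest rise among the called genes of these lists, from 6.83, 6.14 and 7.04 to 8.64, 7.58 and 8.90 (3.27-fold, adjusted p = 0.00873). NOC2 and CIC1, of 60S assembly, and RPA12, a subunit of RNA polymerase I, changed by 1.65, 1.66 and 1.61. These calls were lost without replicate 1 at 35 min (adjusted p = 0.0589 for RPA12). They were also lost without replicate 2 at 15 min or replicate 3 at 35 min for SOF1, NOC2 and CIC1, and without replicate 1 at 15 min for NOC2 and CIC1, with adjusted p of up to 0.0623, 0.173 and 0.192 for SOF1, NOC2 and CIC1. In the opposite direction, KRR1, a 40S assembly factor, was at 9.34, 8.04 and 8.34 and then at 7.40, 6.21 and 6.59, a change of -1.83 whose call was lost without replicate 1 at 15 min, replicate 2 at 35 min or replicate 3 at 35 min (adjusted p of up to 0.114).

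Of 38 genes that modify tRNA, 10 were higher (26.3%, against 5.6% of all probe sets), none was lower and the median change was 0.30. Without replicate 1 or 2 at 15 min, or replicate 1 or 3 at 35 min, 2, 3, 2 and 2 were higher. TRM5, a tRNA methyltransferase, was at 8.64, 9.01 and 8.94 and then at 9.94, 9.68 and 9.60, a 1.83-fold rise (adjusted p = 0.00202), and SUA5, of threonylcarbamoyl modification, rose 1.85-fold (adjusted p = 0.00441). POP1, a protein of RNase P and RNase MRP, rose 1.81-fold. None of the 22 aminoacyl-tRNA synthetases was higher (against 5.6% of all probe sets) and 2 were lower (9.09%, against 5.08%), THS1 and SES1. The THS1 call was kept only when replicate 1 at 35 min was the array left out (adjusted p of up to 0.206). The SES1 call was lost without replicate 1 at 15 min or replicate 2 at 35 min. ANB1, the form of translation factor eIF5A that is made when oxygen is low, was at 11.09, 12.61 and 11.14 and then at 9.79, 9.55 and 9.03, a change of -2.16 whose call was lost without replicate 2 at 15 min or replicate 3 at 35 min (adjusted p of up to 0.0883).

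**Figure D3:**
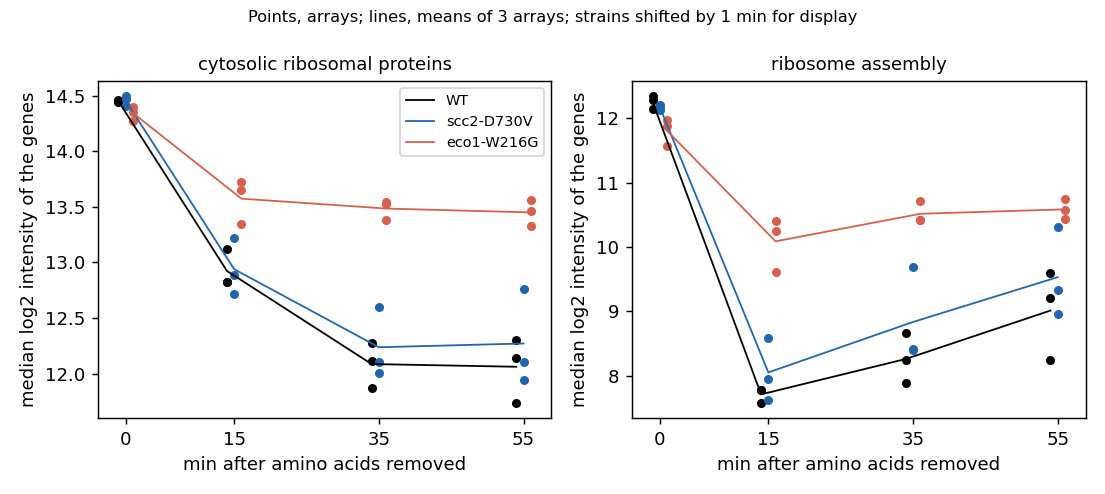
Median log2 intensity (vertical axis) of 127 cytosolic ribosomal protein genes (left) and 159 ribosome assembly genes (right) on each array at 0, 15, 35 and 55 min (horizontal axis), with lines through the means of 3 arrays for WT in black, scc2-D730V in blue and eco1-W216G in red. In WT the ribosomal protein medians are lower at 35 than at 15 min on every array, and the assembly medians are higher.

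Chaperone genes were also among the lower transcripts. Of 42 heat shock and chaperone genes, 11 fell (26.2%, against 5.08% of all probe sets) and none rose. Their median change was -0.32, with 8 to 15 lower when 1 array was left out. HSP26 (YBR072W, chromosome II), a small heat shock protein that holds unfolded proteins, was at 13.76, 13.95 and 13.26 at 15 min and at 10.62, 11.97 and 11.01 at 35 min. Its 5.50-fold drop was the largest of any named gene (standard error 0.37 on the log2 scale, adjusted p = 4.90e-05). SSA4, a stress-induced Hsp70, was at 13.84, 13.54 and 13.54 and then at 11.64, 11.83 and 11.64, 3.83-fold lower (adjusted p = 1.71e-06). STI1 and CPR6, cochaperones of Hsp90, fell 2.61-fold and 2.37-fold, and SSE1, a nucleotide exchange factor for Hsp70, fell 2.38-fold. The other members called lower were HSC82, KAR2, ZUO1, SSA1, SSA2 and HSP104. The calls of SSA1, SSA2 and HSP104 were lost without replicate 1 at 15 min and without replicate 1 or 3 at 35 min, those of SSA1 and SSA2 also without replicate 3 at 15 min and those of SSA1 and HSP104 without replicate 2 at 15 min, with adjusted p of up to 0.164, 0.186 and 0.168. Of 44 general stress genes, which include HSP26, 2 were lower (4.55%, against 5.08% of all probe sets) and 1 was higher (2.27%, against 5.6%), GRE1, a hydrophilin induced by stress, which rose from 13.03, 13.15 and 13.03 to 14.51, 14.42 and 14.39 (2.58-fold, adjusted p = 0.00270). The median change of that list was -0.24.

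Of 20 trehalose and glycogen genes, 3 fell (15.0%, against 5.08% of all probe sets), 17 were not called and 19 had a change below 0, with a median of -0.42. GAC1, which directs protein phosphatase 1 to glycogen synthase, was at 10.89, 11.52 and 11.05 and then at 8.66, 9.80 and 9.16, 3.85-fold lower (adjusted p = 0.00220). GSY1, a glycogen synthase, was at 12.98, 13.11 and 13.12 and then at 10.70, 11.82 and 11.06, 3.67-fold lower (adjusted p = 0.00485). GLG1, the glycogenin that primes the polymer, fell 2.25-fold. GIP2, another targeting subunit of the same phosphatase and no member of the list, was at 10.85, 10.54 and 10.61 and then at 7.94, 9.28 and 8.51, 4.26-fold lower (adjusted p = 0.00271). For each of these genes replicate 2 stood highest at 35 min, and it still lay below every 15 min array.

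Other large decreases came from regulators and from genes of little known function. CIN5, a transcription factor of the Yap family, was at 12.74, 12.52 and 11.79 and then at 9.44, 10.72 and 10.14, 4.77-fold lower (adjusted p = 1.88e-05). MGA1, which resembles heat shock factor, fell 3.91-fold (adjusted p = 0.00706), USV1, a zinc finger factor, fell 2.21-fold (adjusted p = 0.00112), and RCK1, a protein kinase, fell 4.11-fold from widely spread 15 min arrays at 9.24, 7.61 and 8.55 (adjusted p = 0.00182). SCS3, needed for inositol prototrophy, was at 11.28, 11.27 and 11.04 and then at 9.55, 9.25 and 8.74, 4.05-fold lower (adjusted p = 0.000560). YRO2, a membrane protein related to Hsp30, FMP48, a putative kinase, ISF1, a gene tied to RNA splicing in mitochondria, and the uncharacterized YMR206W and YJR115W completed the 15 largest decreases, with changes between -2.25 and -1.97. ADR1 and CAT8, activators of genes for non-fermentable carbon, had changes of -1.10 and -0.85. The ADR1 call was lost without replicate 1 at 35 min (adjusted p = 0.0985), and the CAT8 call unless replicate 2 at 35 min was the array left out (adjusted p of up to 0.170). In the same list of 26 genes of gluconeogenesis and acetate, 5 were higher (19.2%, against 5.6% of all probe sets), among them MLS1 and YAT2. The count was 3 without replicate 1 at 15 min or replicate 1 or 3 at 35 min. MLS1, malate synthase, was at 9.70, 9.77 and 10.09 and then at 10.79, 11.08 and 10.94, a 2.12-fold rise (adjusted p = 0.00469).

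**Figure D4:**
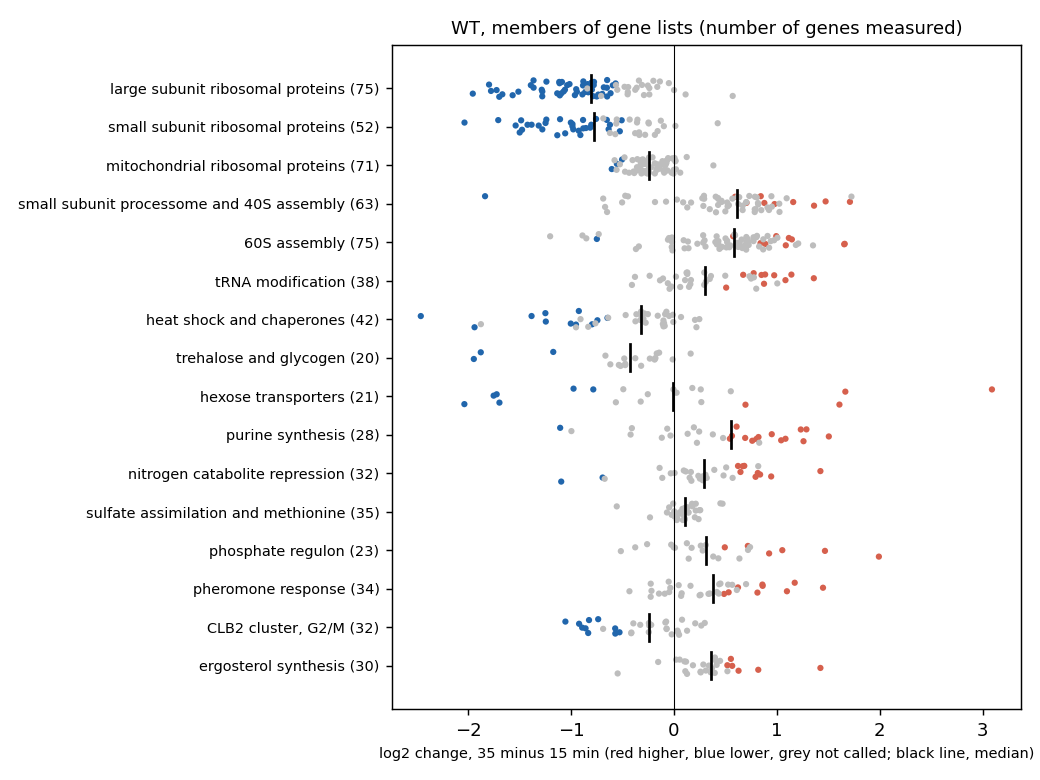
Change from 15 to 35 min in WT (log2, horizontal axis) of the members of 16 gene lists, 1 point for a gene, red where called higher, blue where called lower and grey where not called, with the list's median as a black line and the number of genes measured in brackets. The ribosomal protein lists lie lowest, with medians of -0.80 and -0.78, and the hexose transporters spread widest, from -2.04 to 3.09.

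Genes of purine synthesis and the one-carbon units it uses rose. Of 28 measured, 14 were higher (50.0%, against 5.6% of all probe sets) and 1 was lower, and the median change was 0.55. The count stayed at 11 to 14 with any of the 6 arrays left out. ADE4 (YMR300C, chromosome XIII), which catalyses the first committed step, was at 10.62, 10.70 and 10.73 at 15 min and at 12.34, 12.07 and 12.15 at 35 min, a 2.84-fold rise (standard error 0.22 on the log2 scale, adjusted p = 2.98e-05). ADE17, for the final steps to IMP, was at 13.11, 13.66 and 13.40 and then at 14.50, 14.47 and 14.33, a 2.06-fold rise (adjusted p = 0.000176). ADE6 rose 1.74-fold, and MTD1, a methylenetetrahydrofolate dehydrogenase, rose 2.39-fold. ADE1, ADE2, ADE8 and ADE13 were called as well, ADE2 being a mutant allele in this strain, ADE8 losing its call without any of the 6 arrays (adjusted p of up to 0.212) and ADE13 without replicate 1 at 35 min (adjusted p = 0.0529). So were GCV1, GCV2 and GCV3 of the glycine cleavage complex and the transporter FCY2. IMD2, IMP dehydrogenase of the guanine branch, had a change of -1.11, and its call was lost without replicate 1 or 2 at 15 min and without replicate 1 or 3 at 35 min (adjusted p of up to 0.0872). Of the 15 pyrimidine genes 2 were higher (13.3%, against 5.6% of all probe sets). URK1, uridine kinase, rose 2.46-fold (adjusted p = 0.00394). FUR4, the uracil permease, had a change of 1.15. Its call was lost without replicate 1 at 15 min or at 35 min (adjusted p of up to 0.108).

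GCN4 itself was at 14.50, 14.43 and 14.54 at 15 min and at 14.63, 14.58 and 14.67 at 35 min, a change of 0.14 that was not called (adjusted p = 0.202), and Gcn4 is controlled mainly by translation, which arrays do not measure. GCN2, the kinase itself, was at 10.42, 10.53 and 10.46 and then at 11.46, 11.15 and 11.10, a 1.70-fold rise (adjusted p = 0.000104). None of 35 genes of sulfate assimilation and methionine and none of 13 genes of aromatic amino acids was called. Called genes were 2 of 8 for arginine, 2 of 7 for histidine, 2 of 9 for lysine, 1 of 13 for the branched-chain amino acids and 2 of 13 for threonine, serine and glycine, all of them higher. For arginine, histidine and lysine that was 25.0%, 28.6% and 22.2% of the members, against 5.6% of all probe sets. For the branched-chain amino acids it was 7.69%, near that share, and for threonine, serine and glycine 15.4%. All measured members of the arginine, histidine, lysine and aromatic lists had a change above 0. The medians of the amino acid lists in this paragraph ran from 0.10 to 0.46. ARG8, acetylornithine aminotransferase, was at 12.25, 11.55 and 12.29 and then at 13.49, 12.97 and 13.30, a 2.34-fold rise (adjusted p = 0.000361), and LYS21, homocitrate synthase, rose 1.68-fold (adjusted p = 0.00318). HIS3, a mutant allele here, had a change of 0.80, called unless replicate 1 or 2 at 15 min or replicate 1 or 3 at 35 min was left out (adjusted p of up to 0.0869).

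Nitrogen assimilation showed a few clear rises. GLT1, glutamate synthase, was at 12.21, 12.14 and 12.40 and then at 13.48, 13.01 and 13.27, a 2.01-fold rise (adjusted p = 0.000382). Its neighbour UGA3, an activator of genes that use GABA, rose 1.65-fold (adjusted p = 0.00135). SNZ1 and SNO1, neighbouring genes of vitamin B6 synthesis, rose 2.25-fold and 2.42-fold, SNZ1 from 13.20, 13.05 and 13.19 to 14.38, 14.22 and 14.33 (adjusted p = 4.48e-06). Nitrogen catabolite repression shuts off the use of poor nitrogen sources while better ones last. Of 32 genes under it, 9 rose (28.1%, against 5.6% of all probe sets) and 2 fell (6.25%, against 5.08%). Their median change was 0.29. The count of higher genes was 6 without replicate 2 at 15 min and 12 without replicate 3 at 15 min. DAL5, the allantoate permease, was at 11.33, 11.29 and 11.98 and then at 13.07, 12.61 and 13.19, a 2.68-fold rise (adjusted p = 1.25e-05). DAL4, DAL2, DCG1, DAL7 and DAL3, which lie side by side on chromosome IX and serve the breakdown of allantoin, were all called, with changes of 0.68, 0.81, 0.62, 0.79 and 0.84. The DAL4 call was lost without any of the arrays other than replicate 3 at 15 min, the DCG1 call without replicate 1 or 2 at 15 min or replicate 1 or 3 at 35 min, and the DAL3 call without replicate 2 at 15 min, with adjusted p of up to 0.140, 0.127 and 0.0587.

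Of 21 genes of amino acid catabolism, 7 were higher (33.3%, against 5.6% of all probe sets), PDC6, GCV1 and BNA2 among them, none was lower and the median change was 0.29, with 6 to 7 higher when 1 array was left out. CAR1, arginase, was at 14.18, 14.21 and 14.26 and then at 12.85, 13.34 and 13.17, 2.14-fold lower (adjusted p = 0.000222). BAP3, a permease for branched-chain and other amino acids, was at 13.25, 13.20 and 13.49 and then at 12.33, 12.09 and 11.99, 2.27-fold lower (adjusted p = 0.000197). AGP1, a broad permease, changed by -1.15, a call lost without replicate 3 at 15 min or replicate 1 at 35 min (adjusted p of up to 0.0809). PTR2, the peptide transporter, changed by -0.69, a call lost without replicate 1 or 3 at 15 min or replicate 2 at 35 min (adjusted p of up to 0.0830). Of 24 amino acid permeases 21 were not called, and ALP1, related to the basic amino acid permeases, had a change of 0.91, not called without replicate 1 at either time (adjusted p of up to 0.0746).

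Ion and lipid genes added smaller groups. PHO84 (YML123C, chromosome XIII), the high-affinity phosphate transporter, was at 11.76, 10.54 and 12.24 at 15 min and at 14.07, 12.58 and 13.86 at 35 min, a 3.97-fold rise (adjusted p = 0.00124). Replicate 2 was low at both times, and its 35 min value was close to the highest 15 min value. PHM6 rose 2.76-fold and VTC3, of polyphosphate synthesis, 1.64-fold. In all, 6 of 23 phosphate genes were higher (26.1%, against 5.6% of all probe sets), or 3 without replicate 1 at 35 min. ERG3, sterol C-5 desaturase, was at 11.75, 11.99 and 12.15 and then at 13.88, 12.89 and 13.39, a 2.68-fold rise (adjusted p = 0.000522). Of 30 ergosterol genes 6 were higher (20%, against 5.6% of all probe sets) and 28 had a change above 0. However, 1 was called without replicate 1 at 15 min and 3 without replicate 1 at 35 min. ZRT2, a zinc transporter, rose 1.63-fold (adjusted p = 0.00485). ATM1, the mitochondrial ABC transporter of iron-sulfur metabolism, was at 9.92, 10.34 and 10.80 and then at 11.99, 11.55 and 11.95, a 2.78-fold rise (adjusted p = 1.42e-06).

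Of 34 pheromone response genes, 9 rose (26.5%, against 5.6% of all probe sets) and none fell. Their median change was 0.38, with 6 to 9 calls when 1 array was left out. FAR1, which arrests the cycle in G1 in answer to pheromone, was at 10.20, 10.42 and 10.39 and then at 12.30, 11.46 and 11.60, a 2.73-fold rise (adjusted p = 0.000845). SST2, which turns pheromone signalling down, rose 1.82-fold, and MSG5, a phosphatase of the pathway, 1.75-fold. RNR1, the large subunit of ribonucleotide reductase, rose from 10.10, 10.76 and 10.64 to 11.44, 11.47 and 11.55 (1.98-fold, adjusted p = 0.000262), while RNR4, of its small subunit, fell from 13.92, 14.17 and 13.92 to 12.64, 13.45 and 13.12 (1.91-fold, adjusted p = 0.000646). The CLB2 cluster, expressed from G2 to mitosis, had 10 of 32 genes lower (31.2%, against 5.08% of all probe sets) and none higher. Its median change was -0.24, with 4 to 6 calls with any of the 6 arrays left out, the fewest without replicate 1 at 15 min. SWI5, a factor for genes of the end of mitosis, was at 11.09, 10.49 and 10.76 and then at 9.56, 9.86 and 9.75, 2.08-fold lower (adjusted p = 0.000753), and CHS2, the chitin synthase of the septum, fell 1.81-fold (adjusted p = 0.00126). None of 10 histone genes and none of 17 genes of cohesin and its regulators was called.

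Of 49 cell wall genes, 7 were higher (14.3%, against 5.6% of all probe sets) and 4 lower (8.16%, against 5.08%). SCW10, a glucanase-like wall protein, was at 11.41, 11.52 and 11.58 and then at 13.15, 12.34 and 13.04, a 2.53-fold rise (adjusted p = 3.18e-05), and UTR2, a chitin transglycosylase, rose 2.04-fold. TIP1, a mannoprotein, was at 13.97, 14.26 and 13.99 and then at 12.80, 13.02 and 12.95, 2.22-fold lower (adjusted p = 3.63e-05). Without replicate 1 at 15 min, 4 were higher and 2 lower, and 2 were lower without replicate 2 at 15 min or replicate 1 at 35 min. PRY2, a secreted sterol-binding protein, TEA1, a factor of Ty1 enhancers, and RTP1, of the nuclear import of RNA polymerase II, rose 3.13-fold, 3.08-fold and 3.16-fold. The remaining large rises were the uncharacterized YOR032W-A, 3.76-fold, and YMR244W, whose change of 1.64 was not called without replicate 1 at either time (adjusted p of up to 0.122).

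The 20 min step can be set beside its neighbours in time, which share arrays with it, so that only counts and levels are given. From 0 to 15 min 1872 probe sets were higher (32.5%) and 1814 lower (31.5%) by the same rule, and from 35 to 55 min 13 were higher (0.226%) and 17 lower (0.295%). HXT1 was at 12.69 ± 0.19 (SD, n = 3) at 0 min, 9.08 ± 0.36 at 15 min, 12.17 ± 0.48 at 35 min and 12.70 ± 0.14 at 55 min. HSP26 was at 8.53 ± 0.56, 13.66 ± 0.35, 11.20 ± 0.69 and 10.57 ± 0.44 at the same times, and PDC6 at 7.99 ± 0.48, 10.71 ± 0.61, 13.28 ± 0.03 and 13.91 ± 0.09. HXT4 was at 13.19 ± 0.32, 12.81 ± 0.10, 10.77 ± 0.09 and 9.60 ± 0.57. RPL5 was at 14.87 ± 0.07, 14.31 ± 0.07, 12.51 ± 0.10 and 12.32 ± 0.33. From 15 to 35 min HXT1 and HSP26 thus moved toward their 0 min levels, HXT1 to 12.17 against 12.69 and HSP26 only to 11.20 against 8.53. PDC6, HXT4 and RPL5 lay farther from their 0 min levels at 35 than at 15 min.

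The scc2-D730V arrays entered the WT contrast only through the shared estimate of the spread, and the same interval was compared in them. In that strain 230 probe sets were higher (3.99%) and 197 lower (3.42%). Of the 323 higher in WT, 322 had the same sign and 164 were also called, 50.8% of the WT set and 71.3% of the scc2-D730V set. All 293 lower in WT had the same sign, and 162 were also called, 55.3% and 82.2% of the respective sets. Over all probe sets, 53.3% had a change above 0 and 46.7% below 0 in scc2-D730V. Across the 5763 probe sets, which are not independent and come from arrays normalized together, the changes correlated with r = 0.877. HXT1 changed by 2.20 and HSP26 by -2.53 in scc2-D730V, and of the 127 ribosomal protein genes 76 fell, with a median change of -0.69. No probe set was called for a different change between scc2-D730V and WT in limma's interaction test, where 37 of 5763 had an unadjusted p under 0.05. The absence of calls does not show that the changes were equal.

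The eco1-W216G arrays showed smaller changes. None was higher and 2 were lower (0.0347%), HXT4 and KGD1, although 303 of the 323 and 248 of the 293 had the sign of WT. Over all probe sets, 50.9% had a change above 0 and 49.1% below 0 in eco1-W216G. The standard deviation of the change over all probe sets was 0.24 in eco1-W216G, 0.40 in scc2-D730V and 0.44 in WT, and r with the WT change was 0.577. The interaction test called 33 probe sets, 30 with a more positive and 3 with a more negative change than in WT (0.521% and 0.0521%). All 30 had fallen in WT. The WT change is part of the difference tested and eco1-W216G changes were small, so that fall is no separate result. Of the 33, 25 were for cytosolic ribosomal proteins, of 21 genes, while 127 of the 5449 genes measured encode these proteins. Without replicate 1 at 15 min 10 were called, without replicate 2 at 35 min 17, and without replicate 3 at 35 min 18.

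RPL5 was at 14.44 ± 0.07 at 15 min and 14.34 ± 0.07 at 35 min in eco1-W216G (SD, n = 3), against 14.31 ± 0.07 and 12.51 ± 0.10 in WT. The difference in change was 1.70 (standard error 0.27, adjusted p = 0.00289 in limma). The medians over the ribosomal protein genes were already apart at 15 min, at 13.72, 13.34 and 13.65 in eco1-W216G against 13.12, 12.82 and 12.83 in WT, and at 35 min they were at 13.54, 13.38 and 13.53 against 12.27, 11.87 and 12.11. HXT1 in eco1-W216G was at 11.32 ± 0.12 at 15 min and 12.05 ± 0.31 at 35 min, far above WT at 15 min and level with it at 35 min (difference -2.36, standard error 0.50, adjusted p = 0.0191). HXT3 and SCW10 were also far above WT at 15 min, at 13.27 ± 0.16 and 13.68 ± 0.16, with differences in change of -1.55 and -1.32. HXT4 changed by -1.69 in eco1-W216G, and the difference from WT, 0.35, was not called (adjusted p = 0.861).

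**Figure D5:**
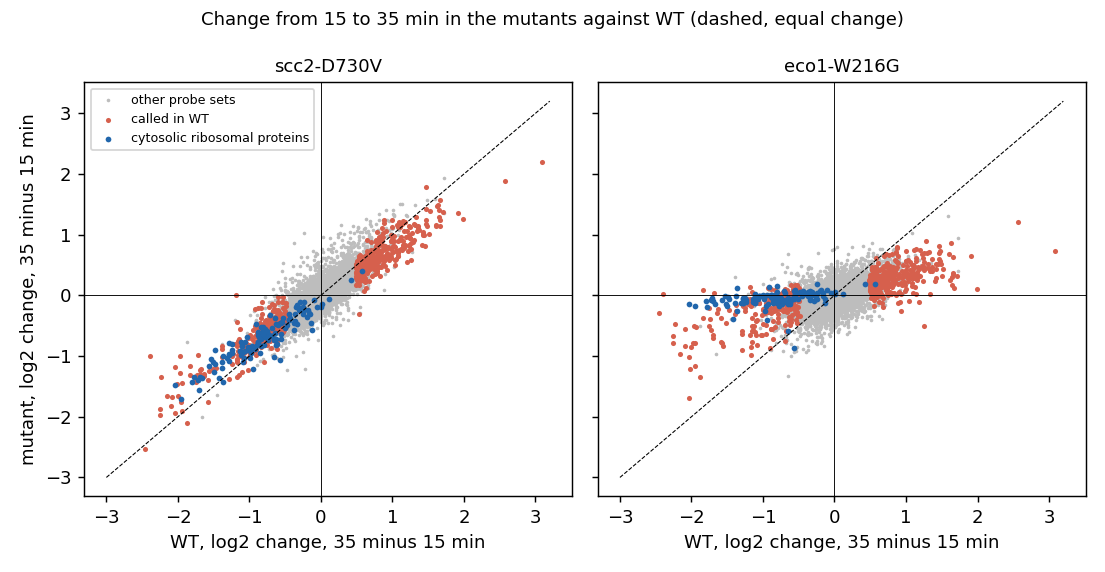
Change from 15 to 35 min (log2) in scc2-D730V (left) and eco1-W216G (right) on the vertical axes against the change in WT on the horizontal axes, 1 point for a probe set, with ribosomal protein genes in blue, other probe sets called in WT in red and the rest in grey, and equal change as a dashed line. Points follow the line in scc2-D730V (r = 0.877) and lie near 0 for most ribosomal protein genes in eco1-W216G (median change -0.04).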

How the data were processed

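RNA was measured on Affymetrix Yeast Genome arrays. The authors summarized probe sets by RMA, with no version given in the sources used here. They deposited a linear intensity per probe set and array, and log2 was taken here, since the values are not on a log scale. All 36 columns were used. Of 5814 probe sets, 51 controls were left out. The 5763 tested include 47 reporter probe sets, none of which was called. The work was done in limma 3.58.1 under R 4.3.3. A model with 12 groups was fitted to all 36 arrays (24 residual degrees of freedom), and the contrast of WT at 35 minus 15 min, the same in each mutant, and their differences were tested, with Benjamini-Hochberg adjustment of p-values over all probe sets of a contrast. The number of arrays limits the precision, and p-values measure the spread between these arrays. No 2 arrays held the same values.

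Gene names came from the platform annotation, updated by Entrez gene identifier to RefSeq assembly R64. In all, 5498 probe sets have a name, for 5449 genes. Members of 63 gene lists were counted with the brightest probe set for each gene. The lists, the members and the tests were chosen with earlier results of these data known. Named genes are the 15 largest increases and 15 largest decreases among calls with non-overlapping arrays, up to 4 members of each list with the smallest p, GCN4 and BAR1. Further genes are named as called members of a list or beside a named gene, after their values were seen. The scripts were tested on simulated data. Alternatives changed the arrays in the fit, the replicate block, normalization, filter on dim probe sets, variance model, array weights and thresholds, and left out each of the 6 arrays. Genome coordinates served only to find genes that are neighbours on a chromosome, and promoter motifs were not analysed here.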

Additional observations from a re-analysis of the deposited data

Results flagged for a closer look

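The change from 15 to 35 min differed between eco1-W216G and WT for 33 probe sets by limma's interaction test with Benjamini-Hochberg adjustment, and the named genes among them are given here as the change in eco1-W216G minus that in WT on the log2 scale. The difference was above 0, after a fall in WT, for RPS8B (1.89), RPL24A (1.79), RPL5 (1.70), RPL17A (1.60), RPP2B (1.36), RPS26A (1.32), RPS8A (1.21), RPP0 (1.15) and RPS15 (1.13) among ribosomal proteins. It was also above 0 for STM1 (1.55) and OLA1 (1.35), both associated with ribosomes, and for the chaperone genes SSA4 (1.42), STI1 (1.23) and CPR6 (1.04). It was below 0, after a rise in WT, for HXT1 (-2.36), HXT3 (-1.55) and SCW10 (-1.32). HSP26, with the largest fall in WT, had a difference of 2.17 that missed the threshold (adjusted p = 0.0510).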

How the results depend on the processing

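No named gene that was called changed sign under any alternative run. The counts of higher and lower probe sets were 162 and 169 at an adjusted p under 0.01, 92 and 116 at 2-fold or more, and 551 and 586 with array weights, whose estimation did not converge and is less certain. Leaving out 1 array gave 160 to 347 higher and 164 to 337 lower. Other fits and normalizations stayed within 1.5 times, from 272 to 461 higher and 227 to 411 lower. For the difference between eco1-W216G and WT, 33 probe sets became 10 at an adjusted p under 0.01, 541 with array weights, and 10 to 40 with 1 array left out. For scc2-D730V the count stayed at 0, also with 1 array left out, except for 1 with array weights.

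The replicate number is not stated to mark a shared culture, so no pairing was assumed. Deviations of WT arrays with the same number correlated by 0.08, 0.36 and 0.18. Those with different numbers correlated by -0.31 to 0.14, and the consensus correlation of the culture block was 0.24. These values do not speak against shared cultures, and the labels do not settle it. With the replicate block for culture, 436 were higher and 411 lower as fixed effects and 428 and 394 as random effects, including all 323 and 293. The counts for eco1-W216G against WT were then 82 and 94. Within the 6 WT arrays the replicate block gave 461 and 411, and 56 rather than 19 assembly factors were higher. With quantile normalization of the tested probe sets 11 assembly factors were higher. Changes under 1.4-fold were not called, and 11 of the assembly genes lay within 1 unit of BAR1, the floor, at 15 min.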
